A study of Mus musculus with 9 samples.

Results

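Integrins, laminins, nidogens and the basement membrane proteoglycans agrin and perlecan were followed in RNA sequencing libraries of sorted mouse bile duct organoid cells. The genes were chosen by a name pattern, with earlier results of these data known. Among the 32137 genes in the deposited files, 40 carried such a name: 17 integrin alpha subunits, 8 integrin beta subunits, 11 laminin chains, 2 nidogens and the 2 proteoglycans. Of these, 30 had enough counts to be tested. The organoids came from 1 male animal of mixed genetic background with the genotype Axin2CreERT2+/-; R26-LSL-tdTom+/-, in which a tamoxifen-activated Cre made from the Wnt target gene Axin2 switches on the red reporter tdTomato. Every culture was expanded for 2 to 4 days, differentiated for 11 days and given 3 uM dexamethasone and 500 nM 4-hydroxytamoxifen over the last 24 h. R-spondin 1 (Rspo1), a secreted protein that strengthens Wnt signalling, was added at 100 ng/ml in that period to some cultures and left out of the others. Sorting gave 3 groups of 3 libraries: tdTomato-negative cells of cultures without Rspo1 (called untreated), tdTomato-negative cells of Rspo1 cultures (Rspo1 tdTom-negative) and tdTomato-positive cells of Rspo1 cultures (Rspo1 tdTom-positive). The line was sampled at passages 5, 6 and 10, with 1 library per group and passage. No group held tdTomato-positive cells without Rspo1, so that in the comparison of Rspo1 tdTom-positive with untreated cells the effects of treatment and of the sorting gate cannot be told apart. All libraries derive from a single animal, and p-values of the group comparisons therefore measure the spread between repeated cultures of 1 organoid line. The passage comparisons rest on 1 library per group at each passage, and their p-values measure no spread between repeated cultures of a passage.

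Epithelial cells rest on a basement membrane, a sheet built from a laminin network and a collagen IV network that nidogens and the heparan sulfate proteoglycans perlecan (Hspg2) and agrin (Agrn) hold together. Each laminin is a trimer of an alpha, a beta and a gamma chain, and cells grip it through integrins, which pair an alpha with a beta subunit. Itga3 and Itga6 products are the main laminin receptors of epithelia, Itga6 with Itgb4 builds hemidesmosomes, Itga1 and Itga2 with Itgb1 bind collagens, and Itgav with several beta subunits binds matrix proteins such as fibronectin and vitronectin. Bile ducts carry a laminin-rich basement membrane in the liver, and organoids of this kind are grown in a gel that is itself rich in laminin.

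The stretches just upstream of 4 members are shown because the results turn on the contrast between them: Itga1, Itga2 and Itgav had the largest falls among integrin alpha genes from untreated to Rspo1 tdTom-negative cells, and Lama5, the most abundant laminin chain, had a log2 change of -0.00 there. That contrast is from the fit without the offset for GC content described further on, with which Itga6 (-0.66) fell more than Itga1 (-0.57) and Itgav (-0.34) and Lama5 was at 0.36 (adjusted p = 0.0909). Each is the 250 bases before the RefSeq start site (GRCm38.p6), 5′ to 3′ on the strand of the gene. Capitals mark matches on either strand to the TCF/LEF motif CTTTGA or to the GC box GGGCGG, which share no letters in these windows. A further motif searched on both strands, TGANTCA of AP-1, had no match. The windows are chr13:115101965-115102214 (minus strand) for Itga1, chr13:114932101-114932350 (minus strand) for Itga2, chr2:83724147-83724396 (plus strand) for Itgav and chr2:180225860-180226109 (minus strand) for Lama5.
Itga1: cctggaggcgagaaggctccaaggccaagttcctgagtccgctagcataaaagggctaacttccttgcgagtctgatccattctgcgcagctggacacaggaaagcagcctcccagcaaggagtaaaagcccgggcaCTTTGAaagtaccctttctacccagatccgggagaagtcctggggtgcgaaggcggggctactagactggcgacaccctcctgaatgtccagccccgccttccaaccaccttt
Itga2: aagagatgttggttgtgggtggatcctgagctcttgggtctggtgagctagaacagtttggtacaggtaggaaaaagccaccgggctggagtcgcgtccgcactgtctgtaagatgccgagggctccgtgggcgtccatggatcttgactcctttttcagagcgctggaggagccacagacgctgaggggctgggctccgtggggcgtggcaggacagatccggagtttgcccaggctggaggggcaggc
Itgav: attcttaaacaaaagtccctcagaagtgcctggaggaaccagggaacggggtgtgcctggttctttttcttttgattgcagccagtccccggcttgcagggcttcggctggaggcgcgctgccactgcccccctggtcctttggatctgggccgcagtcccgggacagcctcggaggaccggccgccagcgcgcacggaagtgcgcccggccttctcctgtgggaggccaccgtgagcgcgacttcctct
Lama5: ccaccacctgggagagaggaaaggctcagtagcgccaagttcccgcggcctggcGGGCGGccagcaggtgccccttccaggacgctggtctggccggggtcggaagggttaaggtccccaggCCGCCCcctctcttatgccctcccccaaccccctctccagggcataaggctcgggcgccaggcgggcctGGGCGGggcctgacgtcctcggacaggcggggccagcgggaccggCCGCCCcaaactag
The Itga1 window held 1 match to CTTTGA, which starts 113 bases before the start site, and the windows of Itga2 and Itgav held none of the 3 motifs. The Lama5 window held 4 GC boxes. RefSeq start sites were found for 25 of the 40 members, with 29 promoters between them. CTTTGA occurred in 4 of these 29, against 13.8% of the 32851 promoter windows of the same length in the table. GGGCGG occurred in 13 of the 29, against 32.7% of all windows, and TGANTCA in 0 of the 29, against 6.75%. A match is a string of letters and not a measured binding site, and a window without one says nothing about the factor.

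Total counts per library ranged from 23423979 to 37351448, and the 40 members took 0.604% to 0.863% of them. Mitochondrial genes took 1.98%, 2.89% and 1.73% of the counts in the untreated libraries of passages 5, 6 and 10, 1.52%, 1.15% and 1.14% in the Rspo1 tdTom-negative libraries and 1.63%, 1.3% and 1.61% in the Rspo1 tdTom-positive libraries. All untreated libraries thus lay above all Rspo1 libraries, and the part of this in the comparisons with untreated cells was not tested. Bile duct markers (8 genes, among them Krt19, Krt7 and Epcam) summed to between 4529.7 and 7922.2 FPKM per library (a level per length of transcript, scaled for sequencing depth) and none lay under 1 FPKM throughout a group. Of 8 hepatocyte markers, 3 to 5 lay under 1 FPKM in all libraries of a group, and their sum of 175.3 to 513.5 FPKM came mainly from Ttr. Mesenchymal markers summed to 0.0418 to 0.355 FPKM and endothelial markers to 0.119 to 0.260 FPKM, and all 8 and all 6 genes measured of these lists lay under 1 FPKM in every library. Leukocyte markers summed to 13.5 to 27.6 FPKM, of which Cd68 and Csf1r made nearly all, while Ptprc, the pan-leukocyte gene, reached group means of 0.00353 to 0.0128 FPKM.

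**Figure D1:**
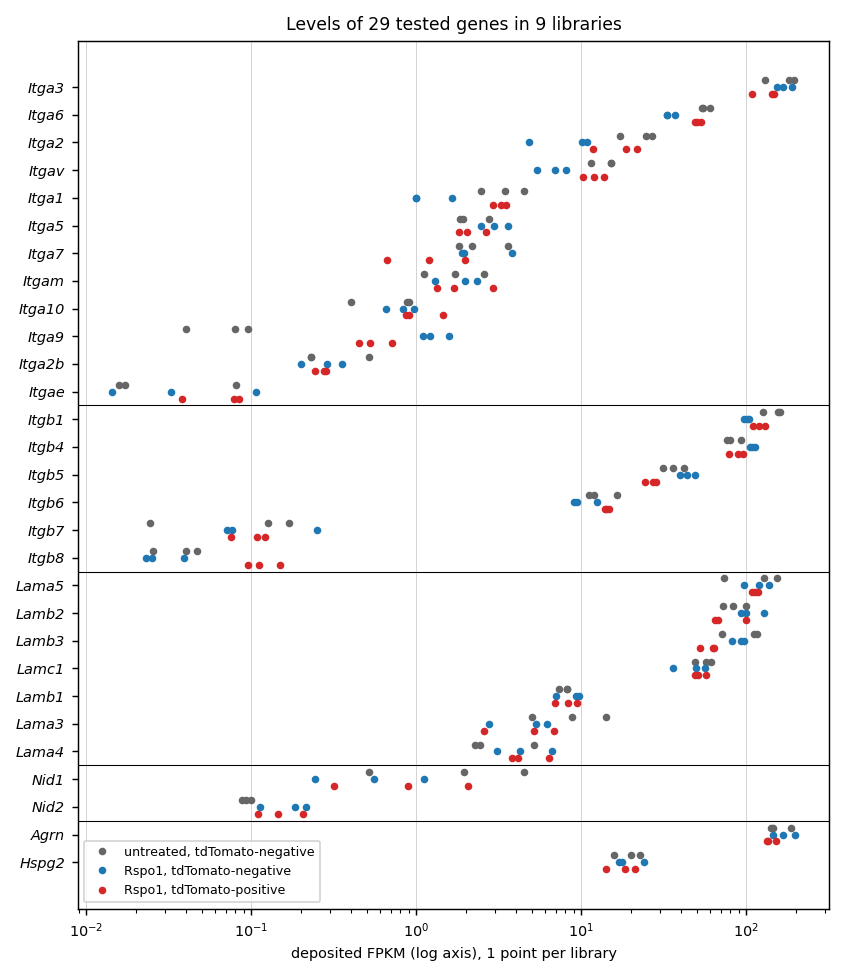
Deposited FPKM of 29 tested genes (log axis), 1 point per library, with untreated libraries in grey, Rspo1 tdTom-negative in blue and Rspo1 tdTom-positive in red, sorted by mean level within each role. Itga3, Itgb1, Lama5 and Agrn lead their roles with means above 100 FPKM, and Itga9 is the gene whose untreated points stand farthest from the others.

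The organoid cells expressed a laminin-binding set of integrins. Itga3 led the alpha subunits, with 195.1, 181.7 and 130.1 FPKM in the untreated libraries of passages 5, 6 and 10, 188.1, 166.2 and 153.5 FPKM in the Rspo1 tdTom-negative libraries and 146.6, 143.7 and 107.6 FPKM in the Rspo1 tdTom-positive libraries. Untreated libraries overlapped with both other groups, whereas all Rspo1 tdTom-positive libraries lay below all Rspo1 tdTom-negative ones. No group comparison of Itga3 passed the test (log2 fold changes -0.35, -0.02 and -0.33 for Rspo1 tdTom-positive against untreated, Rspo1 tdTom-negative against untreated and Rspo1 tdTom-positive against Rspo1 tdTom-negative). Itga3 and Itga6 together made 82.4% ± 0.399 (SD, n = 3) of the summed alpha subunit FPKM in untreated cells, 88.5% ± 1.12 in Rspo1 tdTom-negative cells and 82.2% ± 1.01 in Rspo1 tdTom-positive cells. Among beta subunits Itgb1, the common partner, made 52.6% ± 1.15 of the summed FPKM in untreated cells, and Itgb4, the hemidesmosome subunit, 29.7% ± 1.96. The balance of the pair differed in Rspo1 tdTom-negative cells, where Itgb1 made 38.2% ± 0.600 and Itgb4 41.1% ± 1.03. In Rspo1 tdTom-positive cells the shares were 48.1% ± 1.75 and 35.2% ± 2.45. These shares are descriptions without a test. They rest on FPKM without the offset for GC content described further on, and the GC content is 44.8% in Itgb1 and 60.0% in Itgb4. With that offset the log2 change from untreated to Rspo1 tdTom-negative cells was -0.31 for Itgb1, where it was -0.58 without, and 0.40 for Itgb4.

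Lama5, the alpha chain of mature epithelial basement membranes, led the laminins. Its levels were 128.9, 72.9 and 153.9 FPKM in untreated cells, 97.2, 120.1 and 137.4 FPKM in Rspo1 tdTom-negative cells and 113.3, 108.3 and 118.6 FPKM in Rspo1 tdTom-positive cells. Its groups overlapped, with the untreated libraries spanning both others, and it made 89.3% ± 5.83, 92.5% ± 2.31 and 92.1% ± 2.24 of the laminin alpha chain FPKM in the 3 groups in that order. The difference between Rspo1 tdTom-positive and untreated cells was -0.03 on the log2 scale, with a 95% interval of -0.49 to 0.44. Among the next in mean level were Lamb2 (89.8 FPKM), Lamb3 (83.2 FPKM) and Lamc1 (51.7 FPKM), and the ranges of neighbours in this order overlapped (64.8 to 128.7, 52.1 to 116.5 and 36.0 to 61.2 FPKM). Lamb1 (8.27 FPKM), Lama3 (6.31 FPKM) and Lama4 (4.24 FPKM) were lower throughout. Agrn averaged 156.2 FPKM and Hspg2 19.0 FPKM, and neither passed the test in any comparison of the fit without the GC offset described further on. With that offset both were lower in Rspo1 tdTom-positive than in Rspo1 tdTom-negative cells and passed (-0.54 and -0.51). Their 95% intervals for Rspo1 tdTom-positive against untreated cells were -0.48 to 0.15 for Agrn and -0.42 to 0.17 for Hspg2.

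At the other end, 10 members had at most 14 counts in any library and were not tested. They were Itga4, Itga8, Itga11, Itgad, Itgal, Itgb2, Itgb3, Lama1, Lama2 and Lamc3, and Itga8 and Itgad had no count in any library. Among them are Itgb2, the beta subunit of leukocyte integrins, and Lama1, the laminin chain of the earliest basement membranes. Itgae (2 to 12 counts), Itgb7 (2 to 16 counts) and Nid2 (13 to 30 counts) were tested at the edge of detection and passed in no comparison.

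Rspo1 tdTom-positive cells were compared with untreated cells to see which members went with Rspo1 and the reporter. Lama3 and Lamb3, which code for chains of the laminin that anchors epithelia in hemidesmosomes, were lower in Rspo1 tdTom-positive cells, as were Nid1 and Itga7, and Itga9, Itgb8 and Lama4 were higher. By edgeR's quasi-likelihood test with passage as a block, 8 of the 30 tested members differed at an adjusted p under 0.05 (26.7%), beside 13.2% of all 17011 genes tested. In the higher direction it was 3 members beside 6.44% of all genes, and in the lower direction 5 members beside 6.77%. The median log2 fold change was -0.11 over the members and -0.00 over all genes. In bulk libraries a lower level can come from fewer cells that make an RNA or from less RNA per cell, and these cannot be told apart.

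Lamb3 (chr 1, 193207699 to 193343878, plus strand, GRCm38), a laminin beta chain, stood at 116.5, 111.5 and 71.2 FPKM in untreated cells (passages 5, 6 and 10, here and below) and at 63.4, 62.7 and 52.1 FPKM in Rspo1 tdTom-positive cells. All 3 untreated libraries lay above all 3 Rspo1 tdTom-positive ones, and the log2 fold change was -0.73 (SE 0.14, adjusted p = 0.00607). The adjusted p of Lamb3 was 0.0519 without the untreated library of passage 5. Lama3 was 14.2, 8.81 and 5.0 FPKM in untreated cells and 6.84, 5.16 and 2.56 FPKM in Rspo1 tdTom-positive cells. Its groups overlapped across passages, but at each passage the Rspo1 tdTom-positive library was the lower one (log2 fold change -0.94, SE 0.12, adjusted p = 0.000430). The call of Lama3 rests on the passage term: without the block the value was -0.95 with an adjusted p of 0.277. Of the other laminin chains, Lama5, Lamb1, Lamb2 and Lamc1 had log2 fold changes between -0.16 and 0.05 and did not pass the test.

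Nid1 (chr 13, 13437551 to 13512269, plus strand), the linker between the laminin and collagen IV networks, stood at 4.47, 1.95 and 0.515 FPKM in untreated cells and at 2.06, 0.895 and 0.316 FPKM in Rspo1 tdTom-positive cells. It was lower at each passage (log2 fold change -1.01, SE 0.19, adjusted p = 0.00408), although the groups overlapped because its level differed more between passages than between groups. Itga7, a laminin-binding alpha subunit best known from muscle, stood at 2.19, 1.81 and 3.60 FPKM in untreated and 1.20, 0.662 and 1.97 FPKM in Rspo1 tdTom-positive cells. It too was lower at each passage and overlapped across passages (log2 fold change -1.03, SE 0.18, adjusted p = 0.00345). Without the block, neither Nid1 (-1.09, adjusted p = 0.554) nor Itga7 (-0.98, adjusted p = 0.263) passed.

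Itga9 (chr 9, 118606690 to 118901003, plus strand), whose product pairs with that of Itgb1 and binds tenascin C, osteopontin and VCAM1, had the largest rise. Its mean level is under the 1 FPKM set for giving values in full, and it and Itgb8 are given in full here because of their fold changes, a choice made after the values were seen. Untreated libraries held 22, 17 and 10 counts of Itga9 (0.0952, 0.0796 and 0.0403 FPKM), and Rspo1 tdTom-positive libraries held 205, 110 and 116 counts (0.713, 0.528 and 0.449 FPKM). The groups lay far apart at every passage, and the difference was 7.91-fold (log2 fold change 2.98, SE 0.27, adjusted p = 3.28e-05). It passed in all 12 alternative fits, with values from 2.79 to 3.19. Itgb8, which pairs with Itgav and activates latent TGF-beta, had 7, 12 and 12 counts in untreated libraries and 33, 28 and 46 counts in Rspo1 tdTom-positive libraries. These ranges did not overlap, and the log2 fold change was 1.67 (SE 0.37, adjusted p = 0.0124). Its call on these few counts did not hold in 4 of 6 fits without 1 library: adjusted p was 0.0671 and 0.106 without the Rspo1 tdTom-positive libraries of passages 5 and 10, and 0.0705 and 0.0519 without the untreated ones of those passages.

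Lama4, a laminin alpha chain typical of vessels and mesenchyme, stood at 2.44, 5.17 and 2.26 FPKM in untreated cells and at 3.79, 6.40 and 4.14 FPKM in Rspo1 tdTom-positive cells. It was higher at each passage by a log2 change of 0.60 (SE 0.15, adjusted p = 0.0250). The call was lost without the block (adjusted p = 0.528) and without either group's library of passage 5 or 10 (adjusted p from 0.0717 to 0.132). Mesenchymal and endothelial marker genes were near 0 in all groups, as given above. Immediate early genes that answer to tissue dissociation differed between the same groups: of 10, 6 were higher and 2 lower in Rspo1 tdTom-positive cells, with a list median (log2) of 0.79. The summed duct markers were also lower, at 4529.7 to 4760.8 FPKM in Rspo1 tdTom-positive and 5477.9 to 6783.6 FPKM in untreated cells. The part of either in the differences of the members was not tested.

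Rspo1 tdTom-negative cells were compared with untreated cells, 2 groups that share the reporter-negative gate and differ in Rspo1. In Rspo1 cultures this gate leaves out the tdTomato-positive cells. The effects of Rspo1 and of that selection therefore cannot be told apart here either. The collagen receptor subunits Itga1 and Itga2, Itgav, Itga6 and Itgb1 were lower in Rspo1 tdTom-negative cells, together with Itgb6, Lama3 and Nid1, whereas Itga9, Itga5 and Lama4 were higher. Of the 30 members, 11 differed (36.7%), 3 higher and 8 lower, beside 35.5% of all genes, 15.5% higher and 20.0% lower. The members' share is thus close to that of all genes. Of all genes called, 43.8% were higher, and 54.2% with upper-quartile scaling, where 5 members were higher and 7 lower. The median log2 fold change was -0.02 over the members and -0.01 over all genes.

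Itga2 fell from 26.8, 24.6 and 17.2 FPKM in untreated cells to 10.8, 10.1 and 4.85 FPKM in Rspo1 tdTom-negative cells. The groups did not overlap, and the log2 fold change was -1.50 (SE 0.13, adjusted p = 0.000110). Itga1, another collagen-binding subunit, stood at 2.48, 4.52 and 3.45 FPKM against 0.995, 1.65 and 1.0 FPKM, a log2 change of -1.56 (SE 0.17, adjusted p = 0.000179). Itgav stood at 15.2, 15.2 and 11.4 FPKM against 6.97, 8.13 and 5.42 FPKM (log2 fold change -1.07, SE 0.12, adjusted p = 0.000210). In these 3 genes every Rspo1 tdTom-negative library lay below every library of the untreated group. Itga6, the laminin receptor of hemidesmosomes, stood at 54.6, 53.8 and 60.3 FPKM against 33.1, 33.2 and 36.9 FPKM and was lower by a log2 change of -0.74 (SE 0.11, adjusted p = 0.000709). Its 3 values within a group differed by far less than the groups did.

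Itgb1 stood at 160.3, 155.2 and 127.1 FPKM in untreated and 101.1, 96.9 and 103.7 FPKM in Rspo1 tdTom-negative cells, without overlap (log2 fold change -0.58, SE 0.14, adjusted p = 0.00879). Its call was lost without the Rspo1 tdTom-negative library of passage 5 (adjusted p = 0.0641) or the untreated one (0.0528). Itgb4 moved the other way in value, from 93.2, 79.2 and 76.9 FPKM to 112.5, 104.7 and 108.0 FPKM, but narrowly missed the test (log2 fold change 0.35, SE 0.13, adjusted p = 0.0544). Itgb6, an epithelial partner of Itgav, was 16.4, 11.9 and 11.1 FPKM against 12.4, 8.98 and 9.38 FPKM, and its small difference (-0.39, SE 0.13, adjusted p = 0.0420) was lost in 10 of 12 alternative fits. Itga5, the fibronectin receptor subunit, was 2.77, 1.85 and 1.93 FPKM against 3.59, 2.46 and 2.98 FPKM (0.44, SE 0.15, adjusted p = 0.0383). Its groups overlapped, and the call was lost in 4 of 6 fits without 1 library (adjusted p up to 0.156, without the Rspo1 tdTom-negative library of passage 10), namely without either group's library of passage 5 or 10.

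Itga9 was again the gene with the largest difference, at 312, 270 and 183 counts in Rspo1 tdTom-negative libraries (1.22, 1.58 and 1.1 FPKM) next to the 10 to 22 counts of untreated libraries. This was 18-fold (log2 fold change 4.17, SE 0.27, adjusted p = 2.35e-05), and it passed in all 12 alternative fits. Nid1 stood at 1.11, 0.553 and 0.242 FPKM in Rspo1 tdTom-negative cells and was lower than in untreated cells at each passage (log2 fold change -1.74, SE 0.20, adjusted p = 0.000210, without the block 0.119). Lama3, at 6.18, 5.34 and 2.77 FPKM in Rspo1 tdTom-negative cells, was lower by -0.96 (SE 0.12, adjusted p = 0.000335, without the block 0.113). Lama4, at 3.07, 6.62 and 4.27 FPKM, was higher by 0.50 (SE 0.15, adjusted p = 0.0270), a call lost without the block (0.392) and without the Rspo1 tdTom-negative library of passage 10 (0.103) or the untreated ones of passages 5 (0.0655) and 10 (0.145). Lamb3 did not pass, at 97.5, 92.4 and 81.8 FPKM in Rspo1 tdTom-negative cells (-0.15, 95% interval -0.46 to 0.16). The untreated libraries serve in both of these comparisons, so that the values of a gene in them share an error.

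Rspo1 tdTom-positive and Rspo1 tdTom-negative cells both came from Rspo1 cultures of the same passages and were split by the reporter. Of the 30 members, 14 differed (46.7%), 7 higher and 7 lower in Rspo1 tdTom-positive cells, beside 38.9% of all genes, 21.5% higher and 17.4% lower. The higher ones were Itga1 (log2 fold change 1.49, SE 0.17), Itga2 (1.08, SE 0.13), Itgav (0.84, SE 0.12), Itga6 (0.60, SE 0.11), Itgb6 (0.53, SE 0.13), Itgb8 (2.05, SE 0.40) and Nid1 (0.73, SE 0.20), with adjusted p from 0.000256 for Itga1 to 0.0142 for Nid1. Among these are the collagen receptor subunits Itga1 and Itga2, and Itgav with its beta partners Itgb6 and Itgb8, whereas its partner Itgb5 was lower. With the offset for GC content described further on, Itgav, Itgb6 and Itgb8 did not pass. Among the lower ones were Itga9 (-1.18, SE 0.22), Itga7 (-0.99, SE 0.19), Itgb5 (-0.69, SE 0.15), Lamb3 (-0.58, SE 0.14), Lamb2 (-0.46, SE 0.13) and Itga5 (-0.45, SE 0.15), with adjusted p from 0.00231 for Itga9 to 0.0323 for Itga5. The median log2 fold change was -0.00 over the members and 0.03 over all genes.

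Levels of Itga1 in Rspo1 tdTom-positive cells were 3.28, 3.48 and 2.93 FPKM, those of Itga2 were 21.7, 18.6 and 11.8 FPKM and those of Itgav 13.7, 12 and 10.2 FPKM. For each gene all 3 values were above every Rspo1 tdTom-negative library and overlapped with the untreated libraries. Itga6, at 48.9, 50.1 and 53.5 FPKM, lay between the other groups without touching either. Itgb6 was 14.0, 14.2 and 14.7 FPKM, above all Rspo1 tdTom-negative libraries. Itgb8 had 5 to 8 counts in Rspo1 tdTom-negative libraries next to the 28 to 46 counts of Rspo1 tdTom-positive ones, a 4.15-fold difference.

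Itgb5, an Itgav partner that binds vitronectin, was 27.4, 24.3 and 28.3 FPKM in Rspo1 tdTom-positive cells, 43.5, 39.9 and 49.0 FPKM in Rspo1 tdTom-negative cells and 35.9, 41.9 and 31.2 FPKM in untreated cells. Its Rspo1 tdTom-positive libraries were the lowest of all 9, and against untreated cells it narrowly missed the test (log2 fold change -0.45, SE 0.15, adjusted p = 0.0687). Itga7 was 1.94, 1.89 and 3.80 FPKM in Rspo1 tdTom-negative cells, close to untreated cells at each passage and above Rspo1 tdTom-positive cells. Lamb2, a beta chain that pairs with Lama5 in many basement membranes, was 67.0, 64.8 and 99.3 FPKM in Rspo1 tdTom-positive, 93.4, 100.3 and 128.7 FPKM in Rspo1 tdTom-negative and 71.9, 83.6 and 99.1 FPKM in untreated cells. It was lower in Rspo1 tdTom-positive than in Rspo1 tdTom-negative cells at each passage, with overlap across passages. Itga5 was 2.63, 2.04 and 1.81 FPKM in Rspo1 tdTom-positive cells, below the Rspo1 tdTom-negative library at each passage.

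Several of the 14 calls rested on single libraries. Lamb2 lost the call in 4 of 6 fits that left out 1 library, and so did Itga5. For Lamb2 these were the Rspo1 tdTom-negative libraries of passages 5 (0.0703) and 10 (0.0564) and the Rspo1 tdTom-positive ones of passages 5 (0.0727) and 6 (0.0847). For Itga5 they were both groups' libraries of passages 5 and 10, with adjusted p from 0.0785 to 0.164. Nid1 lost it without the Rspo1 tdTom-negative library of passage 5 (0.127) and the Rspo1 tdTom-positive ones of passages 5 (0.0723) and 10 (0.0520). Itgb6 lost it without the Rspo1 tdTom-negative library of passage 10 (0.0615) and the Rspo1 tdTom-positive ones of passages 6 (0.0674) and 10 (0.0758), and Lamb3 without the Rspo1 tdTom-negative library of passage 10 (0.0576) and the Rspo1 tdTom-positive one of passage 5 (0.0571). Itga1, Itga2, Itga6, Itga7, Itga9, Itgav, Itgb5 and Itgb8 passed in each of these 6 fits. Without the block, Itga5, Itga7, Lamb2 and Nid1 did not pass, with adjusted p from 0.130 for Itga7 to 0.497 for Nid1.

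**Figure D2:**
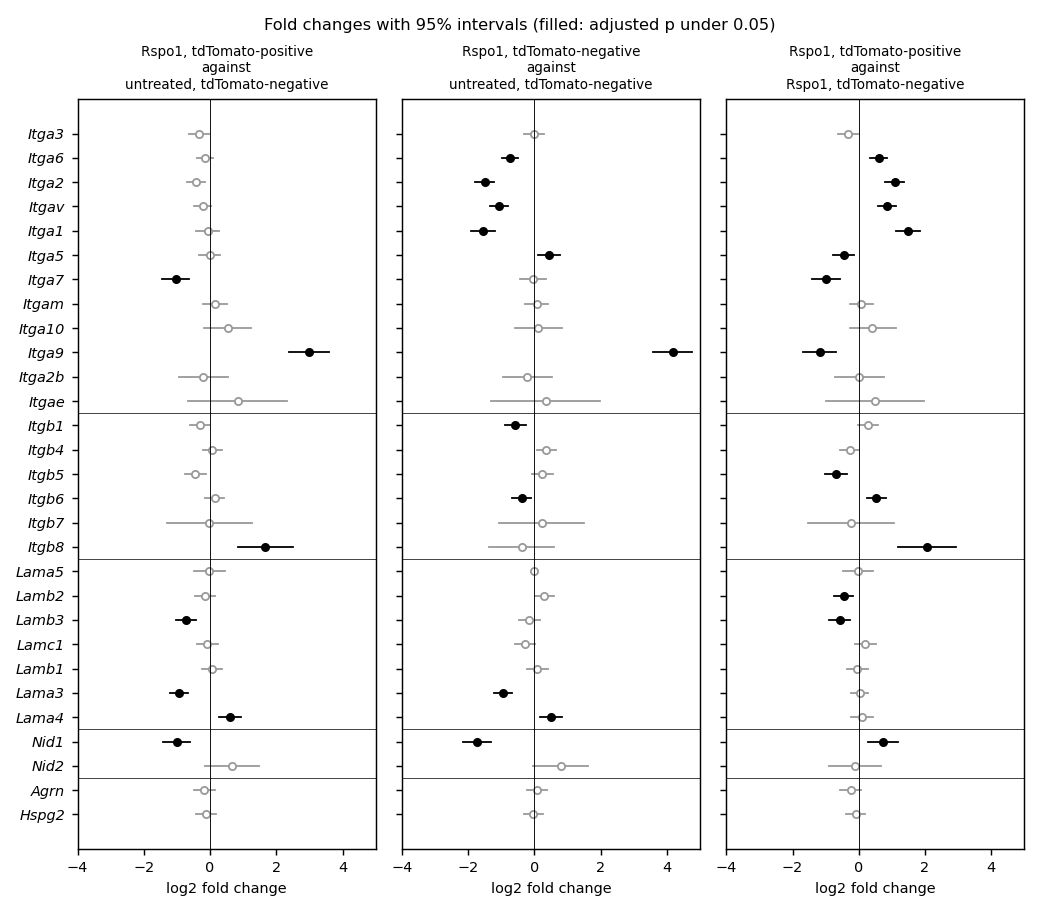
Log2 fold changes of 29 tested genes with 95% intervals in the 3 group comparisons, from the fit with passage as a block. Filled points have an adjusted p under 0.05. No interval is drawn for Lama5 in the middle panel, where its fold change is -0.00 and the interval could not be formed, and Itga9 is the point farthest from 0 in the left and middle panels.

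Base composition moved with the comparisons that hold Rspo1 tdTom-negative cells. Over 17001 genes the rank correlation of the log2 fold change with the GC content of the longest transcript was 0.499 for Rspo1 tdTom-negative against untreated cells, -0.506 for Rspo1 tdTom-positive against Rspo1 tdTom-negative cells and -0.013 for Rspo1 tdTom-positive against untreated cells. Over the 30 members it was 0.509, -0.716 and -0.145. These correlations are descriptions across genes that share the same libraries. Of the 8 members lower in Rspo1 tdTom-negative than in untreated cells, 5 are poor in GC, with 42.8% in Itga1, 43.7% in Itga2, 43.5% in Itgav, 44.8% in Itgb1 and 44.1% in Itgb6. The other 3 are Itga6 with 48.9%, Nid1 with 50.4% and Lama3 with 51.7%, beside a median of 52.9% over the members and 49.9% over all genes. A fit with an offset per library for GC content and transcript length was therefore set beside the first.

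With this offset the loss of Itga1 and Itga2 in Rspo1 tdTom-negative cells was smaller but passed, at -0.57 (SE 0.13, adjusted p = 0.0139) and -0.78 (SE 0.10, adjusted p = 0.000838). That of Itgav shrank to -0.34 (SE 0.09, adjusted p = 0.0195). Itga6, with a GC content of 48.9%, kept most of its difference, at -0.66 (SE 0.09, adjusted p = 0.00127). Itgb1 (-0.31, adjusted p = 0.0896), Itgb6 (0.05, adjusted p = 0.797) and Itga5 (0.31, adjusted p = 0.117) no longer passed, and Itgb4 did (0.40, SE 0.12, adjusted p = 0.0310). Itga9 (4.40), Nid1 (-1.53), Lama3 (-0.52) and Lama4 (0.71) still passed. In Rspo1 tdTom-positive against Rspo1 tdTom-negative cells, 3 members were then higher (Itga1 by 0.44, Itga2 by 0.31 and Itga6 by 0.48) and 9 lower, beside 24.3% of all genes called in that fit. Itgav (0.06), Itgb6 (0.04), Itgb8 (1.01, adjusted p = 0.0755), Nid1 (0.47) and Itga5 (-0.33) did not pass there, while Lama3 (-0.46, adjusted p = 0.0185), Agrn (-0.54, adjusted p = 0.0119) and Hspg2 (-0.51, adjusted p = 0.0352) did. The comparison of Rspo1 tdTom-positive with untreated cells kept all 8 of its calls, with Lama3 at -0.98 and Lamb3 at -0.75, and Itga2 joined them as lower (-0.47, SE 0.09, adjusted p = 0.00704). The source of the GC trend was not tested.

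**Figure D3:**
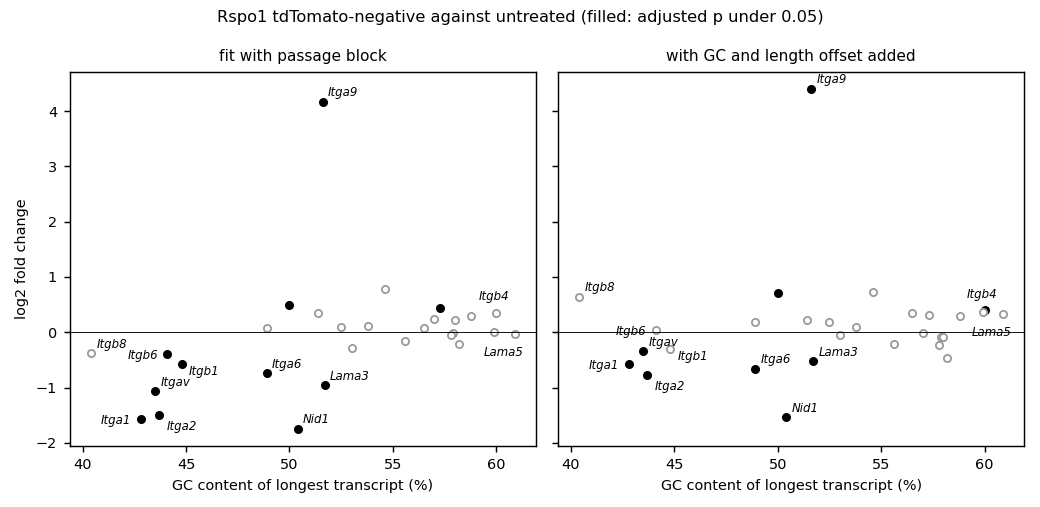
Log2 fold change of 29 tested genes between Rspo1 tdTom-negative and untreated cells against the GC content of its longest transcript, without (left) and with (right) an offset for GC content and length, filled where the adjusted p is under 0.05. The points of Itga1, Itga2 and Itgav near 43% GC move from below -1 toward 0 on the right but stay filled, and those of Itgb1 and Itgb6 become open.

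Passage was examined in the same fit, which compares passages within groups. The 3 libraries of a passage are its sorted groups and not repeated cultures of that passage. At passage 6 against passage 5, 2 of the 30 members differed 1 in each direction, beside 2.49% of all genes (1.16% higher and 1.33% lower), Lama4 higher by 1.0 (SE 0.15, adjusted p = 0.00762) and Nid1 lower by -1.13 (SE 0.18, adjusted p = 0.0104). The first call was lost without the Rspo1 tdTom-negative library of passage 5 (0.0718), and the second without the untreated one (0.111) or the Rspo1 tdTom-positive ones of passages 5 (0.0568) and 6 (0.0629). At passage 10 against passage 5, 6 members differed, 3 in each direction, beside 9.07% of all genes, 4.57% higher and 4.50% lower. Nid1 was lower by -2.69 (SE 0.20, adjusted p = 0.000213), a 6.45-fold difference that appeared in every group. Lama3 was lower by -1.34 (SE 0.12, adjusted p = 0.000316) and Itga2 by -0.85 (SE 0.13, adjusted p = 0.00339), again in all 3 groups. Itgam was higher by 1.09 (SE 0.16, adjusted p = 0.00288), from 1.12, 1.30 and 1.34 FPKM at passage 5 to 2.56, 2.34 and 2.91 FPKM at passage 10 in untreated, Rspo1 tdTom-negative and Rspo1 tdTom-positive cells. Itgam is known as a myeloid subunit that pairs with that of Itgb2, which had at most 9 counts here, and 68.67% of its exon bases are shared with the gene model Gm49368, so that its count is uncertain. Of the 2 leukocyte markers tested, 1 was lower at passage 10. Itga7 (0.83, SE 0.18, adjusted p = 0.0191) and Lamb2 (0.53, SE 0.13, adjusted p = 0.0334) were higher at passage 10. Those 2 calls were lost in 5 and in all 6 of the fits without 1 library, with adjusted p from 0.0516 to 0.144 and from 0.0656 to 0.160. In the offset fit 9 members passed at passage 10, beside 12.7% of all genes, so that calls were more in this fit over all genes too. Of the 9, 2 were higher (Itga7 and Itgam) and 7 lower, which were Nid1, Lama3, Itga2, Itga3 (-0.54), Itga5 (-0.54), Itgav (-0.32) and Lamb3 (-0.49). Lamb2 did not pass then (0.39, adjusted p = 0.0802). At passage 6 Lama3 passed in the offset fit as lower than at passage 5 (-0.55, adjusted p = 0.0296). Lama4, higher, and Nid1, lower, kept their calls there, beside 3.81% of all genes. Each passage is 1 point in the life of 1 line, and 5 of 10 dissociation response genes were lower at passage 6 and 5 at passage 10 than at passage 5, whose part in these differences was not tested.

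**Figure D4:**
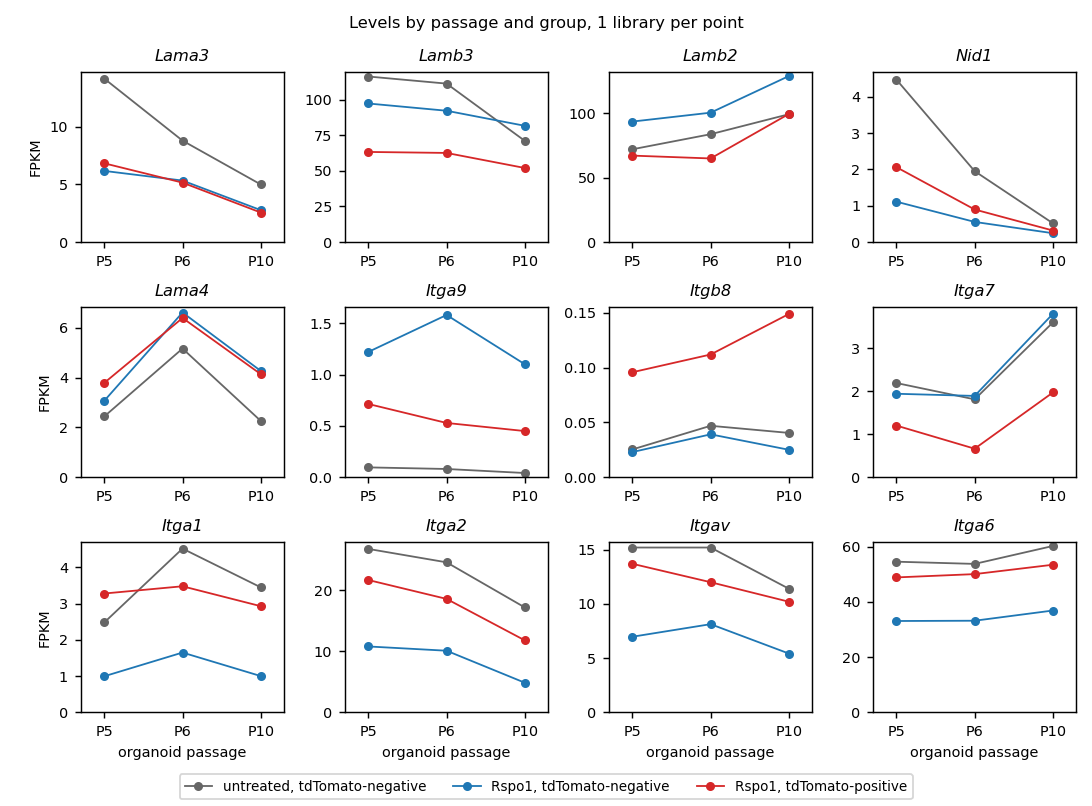
Deposited FPKM of 12 members at passages 5, 6 and 10, 1 library per point, with lines joining the libraries of a group (untreated grey, Rspo1 tdTom-negative blue, Rspo1 tdTom-positive red) and each vertical axis starting at 0. Lama3 and Nid1 are lower at the later passages in all 3 groups, and the Rspo1 tdTom-positive line of Lamb3 lies below the others at each passage.

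Genes around these receptors and ligands were taken from lists of known parts. Their counts are to be read beside the shares of all genes that passed, which were 6.44% higher and 6.77% lower for Rspo1 tdTom-positive against untreated cells, 15.5% and 20.0% for Rspo1 tdTom-negative against untreated cells, and 21.5% and 17.4% between the Rspo1 groups. Of 9 collagen genes of basement membranes, 1 differed between Rspo1 tdTom-positive and untreated cells, Col15a1, with at most 25 counts in a library (-1.58, SE 0.47, adjusted p = 0.0496), and the median was 0.18. In Rspo1 tdTom-negative against untreated cells 1 was higher, Col4a2, a chain of the main collagen IV network (51.2 ± 14.1 against 70.0 ± 6.32 FPKM, SD, n = 3; 0.45, SE 0.14, adjusted p = 0.0315), and 1 lower, Col4a3. Between the Rspo1 groups Col4a3 was higher (2.03, SE 0.41, adjusted p = 0.00345) and Col18a1 lower (-0.43, SE 0.13, adjusted p = 0.0264) in Rspo1 tdTom-positive cells. Col4a3, a chain of a minor collagen IV network, had at most 53 counts in a library. Without the block Col15a1 (adjusted p = 0.164), Col4a2 (0.183) and Col18a1 (0.1) did not pass, nor did Col4a3 between Rspo1 tdTom-negative and untreated cells (0.136, and 0.0562 in the offset fit).

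Of 15 tested genes for other basement membrane proteins, 2 were higher and 6 lower in Rspo1 tdTom-positive than in untreated cells, with a list median (log2) of -0.60. The 2 with the smallest adjusted p were Smoc1, a calcium-binding matrix protein (13.2 ± 2.10 against 6.67 ± 1.46 FPKM; -1.0, SE 0.15, adjusted p = 0.000974), and Ecm1, a secreted matrix protein (525.8 ± 108.9 against 247.5 ± 44.6 FPKM; -1.09, SE 0.17, adjusted p = 0.00141). Without the block 1 of the 15 was lower and none higher, with Ecm1 at an adjusted p of 0.0129 and Smoc1 at 0.0562. Over all genes 5.21% passed in that fit. In Rspo1 tdTom-negative against untreated cells 2 were higher and 4 lower, led by Npnt, a ligand of the Itga8 product (26.9 ± 2.99 against 17.0 ± 1.58 FPKM; -0.70, SE 0.11, adjusted p = 0.00108), and Hmcn1 (-2.28, SE 0.39, adjusted p = 0.00143). Between the Rspo1 groups 5 were lower and 0 higher in Rspo1 tdTom-positive cells, with Smoc1 (-1.0, SE 0.15) and Ecm1 (-0.75, SE 0.17) first. With 5 of 15 called, the list is near the 38.9% of all genes. With the GC and length offset 1 was lower, beside 24.3% of all genes called in that fit, and Ecm1 did not pass (-0.32, adjusted p = 0.148).

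Laminin receptors other than integrins numbered 7, of which Cd44 was higher (106.6 ± 11.4 against 148.6 ± 2.69 FPKM; 0.48, SE 0.13, adjusted p = 0.0353) and Sdc1, a syndecan, lower (155.8 ± 18.3 against 105.7 ± 10.9 FPKM; -0.57, SE 0.15, adjusted p = 0.0288) in Rspo1 tdTom-positive than in untreated cells. In Rspo1 tdTom-negative cells Rpsa (0.74, SE 0.16) and Bcam (0.54, SE 0.17) were higher than in untreated cells, with adjusted p of 0.00518 and 0.0309. Bcam did not pass in the offset fit (0.16, adjusted p = 0.504) or without the block (0.0681). Both blocked calls of the first pair missed the test without the block, at 0.0933 for Cd44 and 0.115 for Sdc1. Of 5 tested hemidesmosome partners, 1 was lower in Rspo1 tdTom-positive than in untreated cells, the keratin gene Krt5 with at most 29 counts (-1.48, SE 0.40, adjusted p = 0.0323, without the block 0.193). In Rspo1 tdTom-negative cells Dst, which links integrin to keratin filaments, was lower than in untreated cells (-1.41, SE 0.30, adjusted p = 0.00512) and lower than in Rspo1 tdTom-positive cells. Cd151, a tetraspanin that binds laminin receptors, was lower in Rspo1 tdTom-positive than in Rspo1 tdTom-negative cells (84.7 ± 3.05 against 153.4 ± 23.7 FPKM; -0.82, SE 0.16, adjusted p = 0.00265).

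Of 24 genes for proteins on the cytoplasmic side of integrins, 3 were higher and 2 lower in Rspo1 tdTom-positive than in untreated cells, 4 higher and 4 lower in Rspo1 tdTom-negative than in untreated cells, and 7 higher and 4 lower in Rspo1 tdTom-positive than in Rspo1 tdTom-negative cells. These are 5, 8 and 11 of 24, beside 13.2%, 35.5% and 38.9% of all genes, so that in the comparisons with Rspo1 tdTom-negative cells the list's share was close to that of all genes. With the GC and length offset the counts were 4 higher and 2 lower, 3 higher and 1 lower, and 1 higher and 5 lower. Over all genes 17.1%, 22.6% and 24.3% passed in that fit, so that in the last comparison the list's share was again close to that of all genes. The balance of the few calls in that comparison turned round on this list. Among all genes called there, the part that was higher went from 55.3% to 49.9%. The list medians were -0.04, 0.06 and -0.04. In the first comparison the genes with the smallest adjusted p were Tln2, a talin (0.205 ± 0.0112 against 0.483 ± 0.0420 FPKM; 1.24, SE 0.20, adjusted p = 0.00192), and Fermt2, a kindlin (4.60 ± 0.506 against 6.94 ± 0.747 FPKM; 0.59, SE 0.12, adjusted p = 0.00924, without the block 0.0686). In the second they were the related scaffold genes Lims1, lower (17.0 ± 1.87 against 8.82 ± 2.55 FPKM; -1.0, SE 0.14, adjusted p = 0.000503), and Lims2, higher (10.5 ± 2.31 against 16.8 ± 3.94 FPKM; 0.64, SE 0.14, adjusted p = 0.00569). The pair went in opposite directions, and with the GC and length offset Lims1 was at -0.38 and passed and Lims2 at 0.26 and did not. Without the block the 3 comparisons gave 1, 2 and 2 calls on this list, beside 5.21%, 21.9% and 24.3% of all genes.

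Of the 40 members, 25 are listed by the authors' deposited tables. They give 2 higher and 8 lower members for Rspo1 tdTom-positive against untreated cells, 2 higher and 7 lower for Rspo1 tdTom-negative against untreated cells, and 6 higher and 9 lower for Rspo1 tdTom-positive against Rspo1 tdTom-negative cells, at an adjusted p under 0.05. The share of all genes past that threshold in the same tables is not given here. These counts can therefore not be read as a result about the members as a set. The authors' deposited table has Itga9 at 3.02 and Lama3 at -0.93 for Rspo1 tdTom-positive against untreated cells. Unlike in the fit used here, Itga3 (-0.34), Itga2 (-0.41) and Itgb5 (-0.44) also pass there. Itga3 (-0.35) and Itgb4 (-0.30) pass in the authors' comparison of the Rspo1 groups as well. In Rspo1 tdTom-negative against untreated cells, Itga5 (0.45) and Itgb6 (-0.37) do not pass in the authors' table.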

How the data were processed

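The deposited files hold raw counts per gene and FPKM values for each of the 9 libraries, per the file headers, and the authors' comparison tables with mean signal, log2 fold changes, test scores and p-values. The submitters' processing notes name Trimmomatic 0.35, FastQC 0.11.2, STAR 2.5.1b, featureCounts and DESeq2 and the build GRCm38, without role or order, and the strand setting is not given in the sources used here. Count divided by deposited FPKM followed a median-of-ratios size factor (median coefficient of variation 0.304% over genes) more closely than the total count (8.671%).

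Libraries were 75 bp single-end reads from 100 ng of total RNA. All 9 entered 1 fit of group and passage in edgeR 4.0.16 (R 4.3.3): TMM scaling, genes kept by a minimum count of 10 and total of 15, quasi-likelihood F test, Benjamini-Hochberg adjustment over 17011 genes, threshold 0.05. Standard errors were taken from the F statistic and intervals from its t distribution. The use of passage as a block rests on the labels, where equal replicate numbers mark a shared passage. Deviations from group means correlated at 0.123 to 0.573 in the 9 same-passage pairs and at -0.476 to 0.083 in the 18 others. Alternatives were DESeq2 1.42.0, no count filter, no block, upper-quartile scaling, the 6 libraries of a comparison alone, each library left out, and an offset for GC content and transcript length (mgcv 1.9.3, 8 basis functions). The scripts were tested on simulated counts.

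Members and lists were chosen with earlier results of these data known. Values per library are given for members past the threshold with a mean of at least 1 FPKM and for the most abundant integrin alpha, integrin beta and laminin chain. From the lists, the 2 genes with the smallest adjusted p in a comparison may be named. Gene models are GENCODE's for GRCm38, where 32116 of 32137 identifiers matched. Promoters are RefSeq's (GRCm38.p6). One member that counts toward the totals is not reported here by name.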

Additional observations from a re-analysis of the deposited data

How the results depend on the processing

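Results moved both without the replicate block and with the offset for base composition and length. Without the pairing by passage, 4, 6 and 9 members passed for Rspo1 tdTom-positive against untreated, Rspo1 tdTom-negative against untreated and Rspo1 tdTom-positive against Rspo1 tdTom-negative cells, where the block gave 8, 11 and 14, and over all genes 886, 3724 and 4141 passed in place of 2247, 6039 and 6624. Leaving out 1 library gave 5 to 9, 7 to 14 and 9 to 15 members, and over all genes 1074 to 2150, 3269 to 7385 and 3674 to 7023. For passage 6 against 5, where 2 members passed, the range was 1 to 2, and DESeq2 and the fit without a count filter each gave 4. For passage 10 against 5, with 6 members, it was 4 to 5. The offset for GC content and length turned the sign of Itgb6 in Rspo1 tdTom-negative against untreated cells (0.05) and of Lama3 in Rspo1 tdTom-positive against Rspo1 tdTom-negative cells (-0.46). Itgb8, which passed in neither fit, went from -0.38 to 0.64 in Rspo1 tdTom-negative against untreated cells. With the offset 3851 and 4131 of all genes passed in the comparisons that hold Rspo1 tdTom-negative cells. When 1 library was left out, 0 single-gene results that passed in either fit changed sign and 57 lost the call. Values near 0 could change sign, such as Lama5 in Rspo1 tdTom-positive against untreated cells. With the offset, Itgb6 lost its call and Lama3 came to pass in the comparisons where they changed sign. Apart from these 2 results, the offset took 8 calls away and added 9 over all comparisons. Leaving out the block took away 14 and added 0. Itga9 kept its call in every alternative of the 3 group comparisons. Depth limits Itgb8, Itgae, Itgb7 and Nid2, and the 10 untested members are not shown to be absent. One animal, 1 line and 3 passages bound every p-value here, and passage cannot be told apart from the culture batch.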

Other observations

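Other ligands of integrins and matrix proteases differed between the groups as well. Of 9 tested ligands outside the basement membrane, 4 were higher and 1 lower in Rspo1 tdTom-positive than in untreated cells, beside 6.44% and 6.77% of all genes. Without the block 2 were higher and 1 lower, beside 5.21% of all genes called in that fit. Thbs1, thrombospondin 1, stood at 17.8 ± 1.23 FPKM (SD, n = 3) in untreated, 29.4 ± 5.96 in Rspo1 tdTom-negative and 47.2 ± 7.06 in Rspo1 tdTom-positive cells, and edgeR gave a log2 change of 1.39 (SE 0.15, adjusted p = 0.000132) for Rspo1 tdTom-positive and 0.67 (SE 0.15, adjusted p = 0.00686) for Rspo1 tdTom-negative against untreated cells. Ltbp1, which tethers latent TGF-beta to the matrix, stood at 5.11 ± 1.66, 1.37 ± 0.428 and 1.35 ± 0.832 FPKM in the same order. Its log2 fold changes against untreated cells were -2.03 (SE 0.19, adjusted p = 4.51e-05) in Rspo1 tdTom-positive and -1.95 (SE 0.19, adjusted p = 0.000146) in Rspo1 tdTom-negative cells. Both genes also passed with the GC and length offset and without the block in these comparisons.

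Of 9 tested matrix proteases and inhibitors, 1 was higher and 1 lower in Rspo1 tdTom-positive than in untreated cells, and 2 were higher and 0 lower in Rspo1 tdTom-negative than in untreated cells, beside 15.5% and 20.0% of all genes. Mmp7, an epithelial metalloprotease, was the most abundant of those named, at 2628.9 ± 717.9 FPKM in untreated, 4877.6 ± 477.6 in Rspo1 tdTom-negative and 3379.6 ± 91.4 in Rspo1 tdTom-positive cells. It was higher in Rspo1 tdTom-negative than in untreated cells (log2 fold change 0.88, SE 0.19, adjusted p = 0.00518), and 0.38 (SE 0.19, adjusted p = 0.231) was measured for Rspo1 tdTom-positive cells. Timp1, a metalloprotease inhibitor, had a log2 change of 1.07 (SE 0.20, adjusted p = 0.00549) in Rspo1 tdTom-positive and 1.09 (SE 0.21, adjusted p = 0.00265) in Rspo1 tdTom-negative against untreated cells. Without the block both missed the test, at 0.129 and 0.0558. Mmp15, a membrane-bound metalloprotease, was lower in Rspo1 tdTom-positive than in untreated cells (53.6 ± 4.68 against 34.5 ± 1.91 FPKM, log2 fold change -0.64, SE 0.13, adjusted p = 0.00628).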
